A study of Mus musculus with 24 samples.

Results

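The mitochondrial respiratory chain genes were taken as all genes whose symbol on the array began with NDUF, UQCR, COX4 to COX8 or ATP5, or was SDHA, SDHB, SDHC or SDHD. They numbered 78 of the 17741 genes named on the array and were read by 88 probes, and each gene was represented by its brightest probe. By symbol, 34 belonged to complex I, 4 to complex II, 6 to complex III, 17 to complex IV and 13 to complex V, and the other 4 (Ndufaf1 to Ndufaf4) were assembly factors of complex I. The RNA came from primary bone marrow cells of C57BL/6 mice that had received tamoxifen for the body-wide deletion of Bap1, a nuclear deubiquitinase, and was read on 24 one-colour arrays. The Cre line, the alleles and the ages of the mice were not given in the sources used here.

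LSK cells carry Sca1 and Kit but no lineage markers, and blood stem cells are concentrated among them. Myeloid progenitors (MP) carry Kit but neither Sca1 nor lineage markers. LSK cells came from KO-labelled mice 2 and 4 and WT-labelled mice 1 and 3, and MP cells from KO-labelled mice 7 and 8 and WT-labelled mice 5 and 6. Each mouse gave 3 arrays, which were averaged, and no mouse gave both populations. All values are log2 intensities, so a change is a difference of mouse means on the log2 scale, given with its standard error (SE). A gene was called changed where limma's p-value, adjusted by Benjamini-Hochberg over all 22439 probes, was 0.05 or less.

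The respiratory chain sits in the inner mitochondrial membrane. Complexes I and II take electrons from NADH and succinate and hand them to ubiquinone, complex III passes them through cytochrome c to complex IV, which reduces oxygen, and complexes I, III and IV pump protons. Complex V, the ATP synthase, uses the proton gradient to make ATP. Most subunits are encoded in the nucleus and imported, while a few are made inside the mitochondrion. In the bone marrow, hematopoietic stem cells are known for leaning on glycolysis more than the dividing progenitors that descend from them, and Sca1-negative Kit-positive progenitors are described as more active in oxidative phosphorylation.

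Not every gene with a matching symbol encodes a subunit. Emc8 (COX4NB on the array) encodes a protein of the endoplasmic reticulum, Dmac2 (ATP5SL) a factor that helps assemble complex I, Dmac2l (ATP5S) a coupling factor of the ATP synthase, and Cox7a2l a factor that joins complexes into supercomplexes. Ndufa4, named for complex I, is now placed in complex IV. Another 8 genes encode isoforms used in particular tissues, among them Cox6a2, Cox7a1 and Cox8b of muscle and Cox6b2, Cox7b2 and Cox8c of testis, and 62 encode subunits used in most cells. The groups of genes below follow the symbols, and medians with these genes moved or left out are given beside those of complexes I, IV and V.

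The Bap1 probe was not lower in KO-labelled mice. It read 11.96 and 11.84 in KO-labelled LSK cells, against 11.55 and 11.45 in WT-labelled ones (0.40 ± 0.18, SE, adjusted p = 0.321), and 11.67 and 11.85 in KO-labelled MP cells, against 11.54 and 11.59 in WT-labelled ones (0.20 ± 0.18, adjusted p = 0.843). Where this probe lies relative to the deleted part is unknown here, so it may check nothing, and the genotypes are given below as labelled. Kdm5d, a Y-linked gene, read 7.88 in mouse 1 and 8.15 in mouse 5, both WT-labelled, and 5.93 to 6.03 in the other 6 mice. Xist, also read as a check of the mice, was 7.37 in mouse 1, 7.28 in mouse 5, 7.51 in mouse 6 and 7.80 to 7.87 in the others. The sex of the mice was not given in the sources used here. Each comparison of labels includes a mouse with a Kdm5d signal on the WT side, so sex and label cannot be fully told apart. Of 8 measured LSK markers 6 were called higher in LSK than in MP cells with either label, and Cd48 was called lower in KO-labelled LSK cells. Of 10 MP markers 5 were called lower in KO-labelled LSK cells and 7 in WT-labelled ones. Over all genes 7.26% were called higher and 5.49% lower in KO-labelled LSK cells, and 8.08% and 5.46% in WT-labelled ones.

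The promoters of 7 genes are shown because 6 of these genes were called lower in LSK cells below and because each holds letters that regulators of respiratory chain genes are known to bind. Each run is the 120 bases before the transcription start, 5′ to 3′ on the gene's strand, from RefSeq (GRCm38.p6). Capitals mark the NRF1-type letters GCGCANGCG or the ETS-type letters CCGGAAG, on either strand, overlapping matches form a single run of capitals, and a match that runs past the start is not marked.
Ndufa5: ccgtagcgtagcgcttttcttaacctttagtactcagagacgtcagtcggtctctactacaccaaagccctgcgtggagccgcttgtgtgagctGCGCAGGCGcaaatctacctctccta
Ndufa8: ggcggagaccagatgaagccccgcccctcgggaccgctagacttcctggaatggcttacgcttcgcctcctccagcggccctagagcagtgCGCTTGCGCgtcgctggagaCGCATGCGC
Ndufa11: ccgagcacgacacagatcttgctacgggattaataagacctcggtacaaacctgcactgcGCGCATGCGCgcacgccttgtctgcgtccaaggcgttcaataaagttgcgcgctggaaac
Sdhd: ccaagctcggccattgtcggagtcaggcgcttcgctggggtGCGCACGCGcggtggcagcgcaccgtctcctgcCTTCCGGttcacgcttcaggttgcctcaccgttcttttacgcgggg
Uqcr11: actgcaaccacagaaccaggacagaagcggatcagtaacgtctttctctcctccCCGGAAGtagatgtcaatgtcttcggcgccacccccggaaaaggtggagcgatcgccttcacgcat
Atp5k: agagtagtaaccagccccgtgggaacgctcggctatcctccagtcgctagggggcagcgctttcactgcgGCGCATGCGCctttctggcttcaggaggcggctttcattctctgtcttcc
Cox6a1: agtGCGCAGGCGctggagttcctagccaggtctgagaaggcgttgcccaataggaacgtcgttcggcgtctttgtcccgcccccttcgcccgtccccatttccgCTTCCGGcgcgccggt
These runs lie at chr6:24527691-24527810 (Ndufa5), chr2:36049339-36049458 (Ndufa8), chr9:50603850-50603969 (Sdhd), chr10:80406822-80406941 (Uqcr11), chr5:108434400-108434519 (Atp5k) and chr5:115348959-115349078 (Cox6a1), all on the minus strand, and at chr17:56717642-56717761 (Ndufa11) on the plus strand. In Ndufa11 and Atp5k the letters and their reverse complement overlap, and in Sdhd and Cox6a1 both kinds of letters stand before the start. Cox6a1, which carries both kinds, is the gene among them that was called in no comparison.

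RefSeq windows of 300 bases, from 250 before to 50 after the start, were at hand for 64 of the 78 genes, with 5 genes having 2 windows. Of these 69 windows 17 (24.6%) held GCGCANGCG, against 6.25% of all 32851 windows and 8.58% of the 21262 windows of protein-coding genes. The ETS-type letters stood in 12 of the 69 (17.4%), against 8.86% of all windows and 11.6% of protein-coding ones. The YY1-type letters AAGATGGCG stood in 7 (10.1%), against 1.4% of all windows and 1.83% of protein-coding ones. A match describes the letters alone, and no binding was measured. The 16 genes with the NRF1-type letters had a median change, LSK minus MP, of -0.37 in KO-labelled and -0.42 in WT-labelled mice, and the 48 without had -0.38 and -0.43. The 12 genes with the ETS-type letters had medians of -0.60 and -0.68, and the 52 without had -0.31 and -0.39. The 6 genes with the YY1-type letters had medians of -0.45 and -0.20, and the 58 without had -0.34 and -0.45, so that those with the letters were lower in KO-labelled mice and higher in WT-labelled mice. These are descriptions of groups of genes and were not tested.

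Respiratory chain genes were mostly lower in LSK cells than in MP cells. The median change of the 78 genes, LSK minus MP, was -0.30 in KO-labelled mice and -0.39 in WT-labelled mice, while the medians of all 17741 genes were -0.010 and -0.026. A negative change was found for 70 of the 78 genes in KO-labelled mice and for 73 in WT-labelled mice. KO-labelled and WT-labelled populations come from different mice, so these are separate measurements.

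In KO-labelled mice 16 of the 78 genes (20.5%) were called lower in LSK cells and 0 higher, where 5.49% of all genes were called lower, 7.26% higher and 12.8% either way. In WT-labelled mice 18 (23.1%) were called lower and 0 higher, where 5.46% of all genes were called lower, 8.08% higher and 13.5% either way. Respiratory chain probes are bright, and among genes above the median probe mean of 7.20, 15 of 63 respiratory chain genes (23.8%) were called lower in KO-labelled mice, against 8.55% of all such genes, and 18 of 63 (28.6%) in WT-labelled mice, against 8.7%. Both LSK mice lay below both MP mice for 49 genes with the KO label (62.8%, against 29.9% of all genes) and for 53 with the WT label (67.9%, against 32.4%).

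These counts changed when a mouse was left out, and so did the share of all genes called lower. Leaving out 1 mouse gave 4 to 16 calls in KO-labelled mice. There were 9 without mouse 2, 4 without mouse 7 and 6 without mouse 8, where 1.79%, 2.14% and 2.02% of all genes were called lower. In WT-labelled mice it gave 6 to 23, with 6 without mouse 1, 9 without mouse 3 and 8 without mouse 5, where 1.98%, 2.91% and 3.15% of all genes were called lower. A fit without a mouse of the comparison leaves a group of 1, which is assumed to vary like the other groups. A fit without a mouse of the other groups keeps the change itself and alters the pooled spread alone. A lost call therefore does not show that the mouse left out decided it. When mice 1 and 5, which had a Kdm5d signal, were both left out, 4 genes were called lower in WT-labelled LSK cells (Ndufb3, Ndufb6, Uqcrq and Cox5a), where 1.1% of all genes were. With all 24 arrays and the mouse as a random block, 29 of the 78 (37.2%) were called lower in KO-labelled and 32 (41.0%) in WT-labelled LSK cells, where 12.9% and 12.8% of all genes were.

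Of the genes called lower in LSK cells 12 were shared between labels, which is 75.0% of the 16 called in KO-labelled mice and 66.7% of the 18 called in WT-labelled mice. Among all genes the calls shared in the same direction made up 60.2% and 56.7%. The 12 shared genes are 15.4% of the respiratory chain genes, where 2.94% of all genes were called lower with both labels. Across the 78 genes the changes in KO-labelled and WT-labelled mice correlated with r = 0.77 (Spearman's rho 0.79), and across all genes with r = 0.79 (rho 0.68). Genes share arrays and are no replicates, so this describes these mice.

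**Figure D1:**
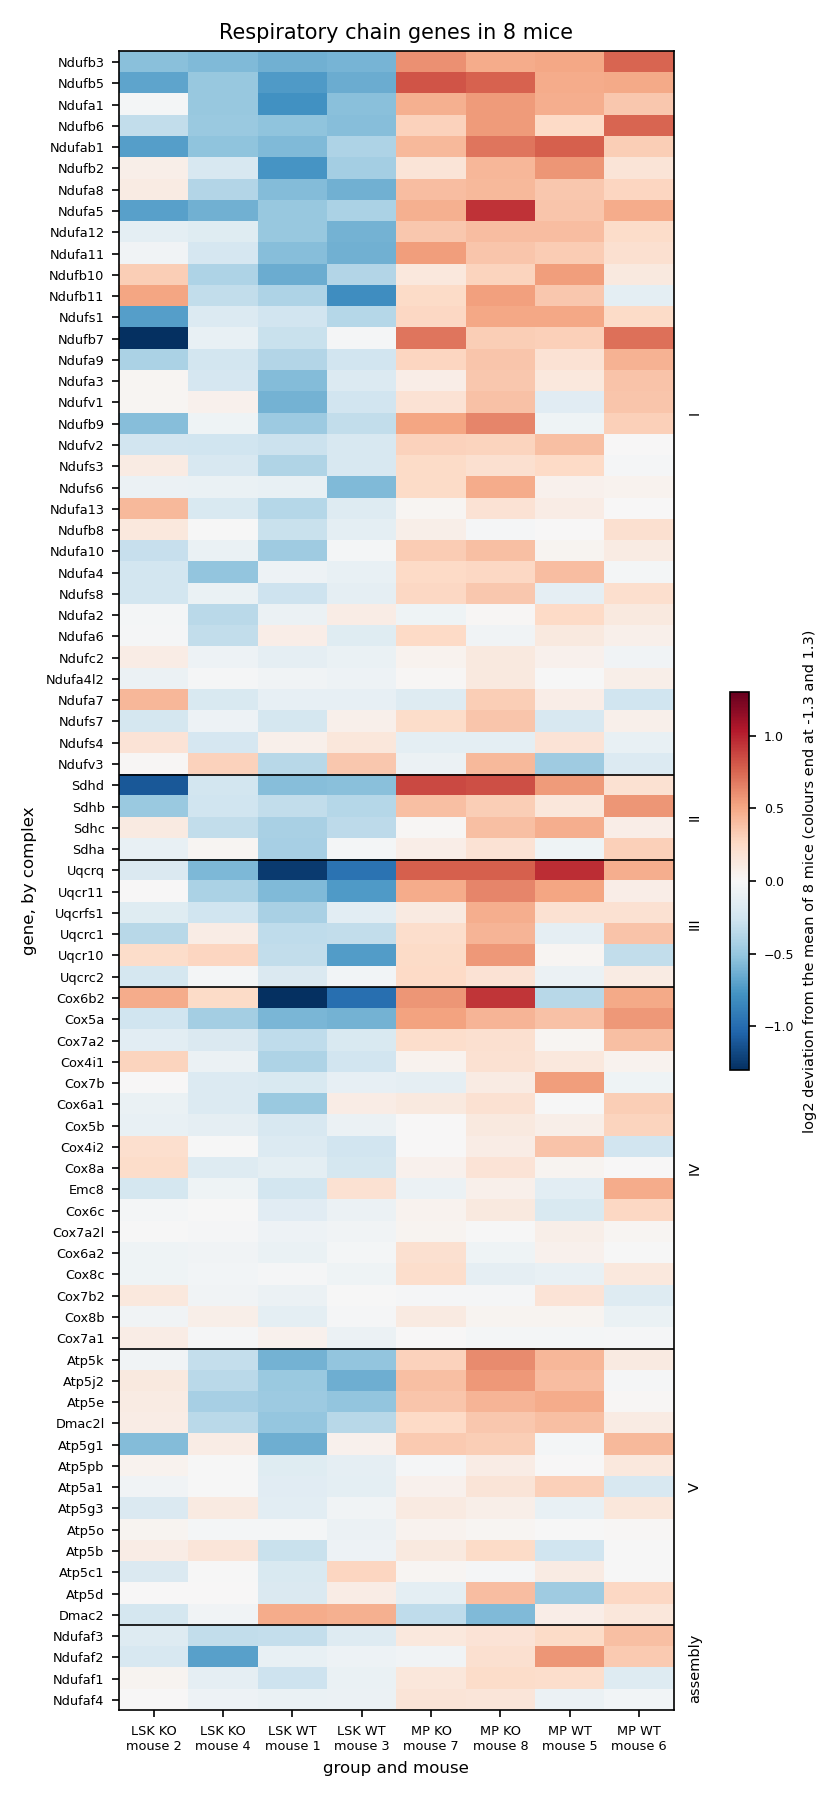
Log2 deviation of the 78 respiratory chain genes from their mean over 8 mice; rows are genes ordered by complex and, within it, by the change between WT-labelled LSK and MP cells, and columns are mice by group. Blue is below and red above the gene's mean. The LSK columns are mostly blue and the MP columns mostly red for complexes I, II and III, and Dmac2 and Cox6b2 run by label as well.

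Complex I, the largest group, held most of the calls, with 11 of its 34 genes lower in LSK cells with either label. In complex II 2 of 4 genes and in complex III 2 of 6 were called lower with either label. Without Ndufa4 and Ndufa4l2, 10 of 32 genes of complex I were called in KO-labelled and 11 of 32 in WT-labelled mice. The median change of complex I was -0.46 in KO-labelled and -0.53 in WT-labelled mice (-0.46 and -0.58 without these 2 genes). Its gene medians in all 4 LSK mice lay below those in all 4 MP mice. The largest single changes were those of accessory subunits, which surround the catalytic core and are more numerous. In KO-labelled mice 8 of 26 accessory and 2 of 6 core genes were called, and in WT-labelled mice 11 of 26 and 0 of 6.

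Ndufb5, an accessory subunit of the membrane arm, read 8.24 and 8.44 in KO-labelled LSK cells, against 9.75 and 9.69 in KO-labelled MP cells (-1.38 ± 0.20, adjusted p = 0.00159), a 2.60-fold difference. With the WT label it read 8.19 and 8.28 in LSK, against 9.41 and 9.42 in MP (-1.18 ± 0.20, adjusted p = 0.00309). The LSK and MP mice did not overlap, and Ndufb5 was called with both labels in each of the 8 fits that left out a mouse.

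Ndufb3, also of the membrane arm, read 8.87 and 8.84 in KO-labelled LSK cells, against 10.01 and 9.88 in KO-labelled MP cells (-1.09 ± 0.20, adjusted p = 0.00623). WT-labelled cells read 8.79 and 8.80 in LSK, against 9.91 and 10.16 in MP (-1.24 ± 0.20, adjusted p = 0.00278). All 4 LSK mice were close together for this gene and lay below all MP mice. The WT call was kept in all 8 fits, and the KO call was lost without mouse 7 (adjusted p = 0.0636).

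Ndufa5, an accessory subunit of the arm that reaches into the matrix, read 11.36 and 11.45 in KO-labelled LSK cells, against 12.53 and 13.01 in KO-labelled MP cells (-1.37 ± 0.20, adjusted p = 0.00205). The WT-labelled values were 11.58 and 11.66 in LSK, against 12.43 and 12.56 in MP (-0.88 ± 0.20, adjusted p = 0.0167). Its KO call held without any 1 mouse, and its WT call was lost without mouse 1, 3, 5 or 6 (adjusted p up to 0.110).

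Ndufab1, the mitochondrial acyl carrier protein that also sits in complex I, read 6.85 and 7.04 in KO-labelled LSK cells, against 7.99 and 8.27 in KO-labelled MP cells (-1.18 ± 0.20, adjusted p = 0.00388). In WT-labelled cells it read 6.99 and 7.17 in LSK, against 8.35 and 7.88 in MP (-1.04 ± 0.20, adjusted p = 0.00670). The gap between populations was larger than the gap between the mice of any group. Its WT call was lost without mouse 1 or 5 (adjusted p up to 0.0565).

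Ndufa1 fell by 0.77 ± 0.20 in KO-labelled and by 1.08 ± 0.20 in WT-labelled LSK cells relative to MP cells (adjusted p = 0.0304 and 0.00584), and Ndufb6 by 0.83 ± 0.21 and 1.05 ± 0.21 (adjusted p = 0.0275 and 0.00845). The KO call of Ndufa1 was lost without mouse 4, 7 or 8, and its WT call without mouse 1. The KO call of Ndufb6 was lost without mouse 2, 4, 7 or 8, and its WT call without mouse 1 or 6.

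Ndufa9, a subunit of the matrix arm, was called with both labels as well, at -0.64 ± 0.18 in KO-labelled and -0.63 ± 0.18 in WT-labelled mice (adjusted p = 0.0415 and 0.0429), near the threshold. Ndufb9 (-0.88) and Ndufa4 (-0.64) were called in KO-labelled mice alone, and Ndufb2 (-0.98), Ndufa8 (-0.91), Ndufa12 (-0.87) and Ndufa11 (-0.86) in WT-labelled mice alone. Each call of these 7 genes was lost in 2 to 6 of the 8 fits that left out a mouse. A call with 1 label and none with the other does not show that labels differed: the difference of these differences was called for 0 of the 78 genes, as given below.

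The core of complex I binds the flavin and the iron-sulfur clusters through which electrons run to ubiquinone, and 6 of its nuclear genes were measured. All 6 were negative with both labels, with medians of -0.46 in KO-labelled and -0.43 in WT-labelled mice, and the 26 accessory genes had medians of -0.49 and -0.65. Ndufs1, the largest iron-sulfur subunit, read 10.09 and 10.63 in KO-labelled LSK cells, against 11.07 and 11.31 in MP cells (-0.83 ± 0.23, adjusted p = 0.0408), and its change in WT-labelled mice was -0.68 (adjusted p = 0.0835). Ndufv2, which carries an iron-sulfur cluster beside the flavin, changed by -0.55 ± 0.15 in KO-labelled mice (adjusted p = 0.0345) and by -0.44 in WT-labelled ones (adjusted p = 0.0777). The KO call of Ndufs1 was lost in 5 and that of Ndufv2 in 4 of the 8 fits that left out a mouse. Ndufv1, the flavin subunit, and Ndufs3, Ndufs7 and Ndufs8 were called with neither label, at -0.24 to -0.47 in KO-labelled and -0.02 to -0.54 in WT-labelled mice.

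A few genes of complex I had changes near or above 0. Ndufs4, an accessory subunit, changed by 0.11 in KO-labelled and 0.07 in WT-labelled mice and was not called. Ndufv3 changed by -0.02 and 0.31, and its other 2 probes changed by -0.15 and -0.18 in WT-labelled mice. The second probe of Ndufs4 changed by -0.53 in WT-labelled mice and that of Ndufa11 by 0.16, against -0.86 for its brighter probe, and neither second probe was called. The 4 complex I assembly factors that share the NDUF prefix were all negative with both labels (medians -0.32 and -0.37), with 0 called. Of these 4, 1 and 2 were below an unadjusted p of 0.05, where 4649 and 4847 of all 17741 genes were.

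**Figure D2:**
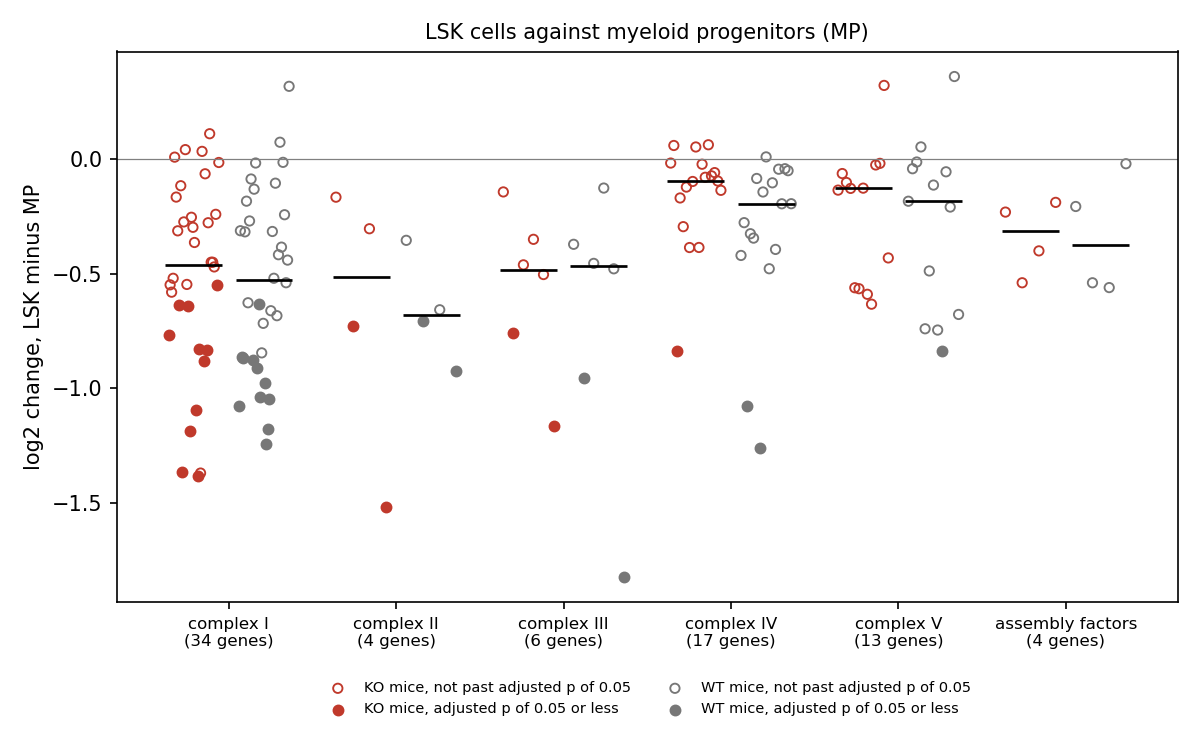
Log2 change between populations, LSK minus MP, of each respiratory chain gene by complex, in KO-labelled mice (red, left) and WT-labelled mice (grey, right), 2 mice per population and label. Filled points were called and black lines are medians. Every filled point lies below 0, and the medians of complexes I to III lie lower than those of IV and V. The medians include genes with probe means under 6.5, named below, many of them of complex IV.

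Complex II, succinate dehydrogenase, links the citric acid cycle to the chain and is wholly encoded in the nucleus. All 4 genes were negative with both labels, with medians of -0.52 in KO-labelled and -0.68 in WT-labelled mice. Sdhd, a membrane anchor, read 11.22 and 12.08 in KO-labelled LSK cells, against 13.18 and 13.16 in KO-labelled MP cells (-1.52 ± 0.26, adjusted p = 0.00435), the largest KO change of the 78 genes. In WT-labelled cells Sdhd read 11.77 and 11.78 in LSK, against 12.88 and 12.52 in MP (-0.92 ± 0.26, adjusted p = 0.0406). The groups did not overlap, but KO-labelled LSK mouse 2 lay well below mouse 4. The KO call was kept in all 8 fits that left out a mouse, and the WT call was lost in 6 of 8 fits that left out a mouse.

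Sdhb, the iron-sulfur subunit, read 11.62 and 11.85 in KO-labelled LSK cells, against 12.49 and 12.42 in MP cells (-0.73 ± 0.20, adjusted p = 0.0392). With the WT label it read 11.79 and 11.73 in LSK, against 12.25 and 12.68 in MP (-0.71 ± 0.20, adjusted p = 0.0427). Both calls were near the threshold and were lost in 5 of the 8 fits without 1 mouse. Sdha, the flavoprotein that oxidises succinate, changed by -0.17 and -0.36, and Sdhc, the other anchor, by -0.31 and -0.66, and neither was called.

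Complex III had medians of -0.48 in KO-labelled and -0.47 in WT-labelled mice, with all 6 genes negative and 2 called with each label. Uqcrq, a small accessory subunit, read 10.88 and 10.47 in KO-labelled LSK cells, against 11.84 and 11.83 in KO-labelled MP cells (-1.16 ± 0.24, adjusted p = 0.00981). WT-labelled cells read 9.81 and 10.10 in LSK, against 12.02 and 11.53 in MP, 3.53-fold lower (-1.82 ± 0.24, adjusted p = 0.000741). This was the largest WT change of the 78 genes, and it was called in all 8 fits that left out a mouse, while the KO call was lost without mouse 7 or 8.

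Uqcr11, another small subunit, read 7.60 and 7.19 in KO-labelled LSK cells, against 8.08 and 8.22 in MP cells (-0.76 ± 0.20, adjusted p = 0.0345). The WT-labelled values were 7.02 and 6.86 in LSK, against 8.10 and 7.68 in MP (-0.95 ± 0.20, adjusted p = 0.0111). The KO call was lost without mouse 4, 7 or 8, and the WT call without mouse 3 or 5. The larger subunits were called with neither label: Uqcrfs1, the Rieske iron-sulfur protein, changed by -0.50 and -0.48, and the core proteins Uqcrc1 and Uqcrc2 by -0.46 and -0.46 and by -0.35 and -0.13.

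Complex IV had smaller medians, -0.10 in KO-labelled and -0.20 in WT-labelled mice, and its 8 subunits used in most cells had -0.14 and -0.37. Its genes Cox4i2, Cox7a1, Cox7a2l, Cox7b, Cox7b2, Cox8b and Cox8c had probe means under 6.5. The 10 respiratory chain genes with such means had medians of -0.04 and -0.07. The part of these dim probes in the smaller medians was not tested. With Ndufa4 counted here and Cox7a2l left out the medians were -0.10 and -0.27, and with Emc8 left out -0.09 and -0.24. Cox5a, a nuclear-encoded subunit of most cells, read 14.19 and 14.01 in KO-labelled LSK cells, against 14.98 and 14.90 in KO-labelled MP cells (-0.84 ± 0.15, adjusted p = 0.00582). In WT-labelled cells it read 13.87 and 13.85 in LSK, against 14.84 and 15.02 in MP (-1.07 ± 0.15, adjusted p = 0.00127). The 2 mice of each group were close for Cox5a, and its WT call was kept in all 8 fits while its KO call was lost without mouse 7 (adjusted p = 0.0636). The other subunits of most cells, Cox4i1, Cox5b, Cox6a1, Cox6c, Cox7a2, Cox7b and Cox8a, ranged from -0.02 to -0.39 in KO-labelled and from -0.15 to -0.48 in WT-labelled mice, and 0 of these 7 were called.

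Complex V had medians of -0.13 in KO-labelled and -0.19 in WT-labelled mice, and the same to 2 decimals without Dmac2 and Dmac2l. Atp5k, a small subunit of the membrane part, read 11.11 and 10.85 in KO-labelled LSK cells, against 11.46 and 11.77 in MP cells (-0.63 ± 0.21, adjusted p = 0.0833), and 10.54 and 10.64 in WT-labelled LSK cells, against 11.58 and 11.27 in MP cells (-0.84 ± 0.21, adjusted p = 0.0266). It was the gene of complex V that was called, with the WT label alone, and the call was lost without mouse 1, 3 or 5. The genes of the catalytic head were not called: Atp5a1, Atp5b and Atp5c1 changed by -0.14, -0.06 and -0.10 in KO-labelled mice and by -0.19, -0.04 and -0.01 in WT-labelled mice. Dmac2, which is no subunit, was the gene with the highest change of the 78 with both labels, at 0.32 and 0.36, and was not called.

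**Figure D3:**
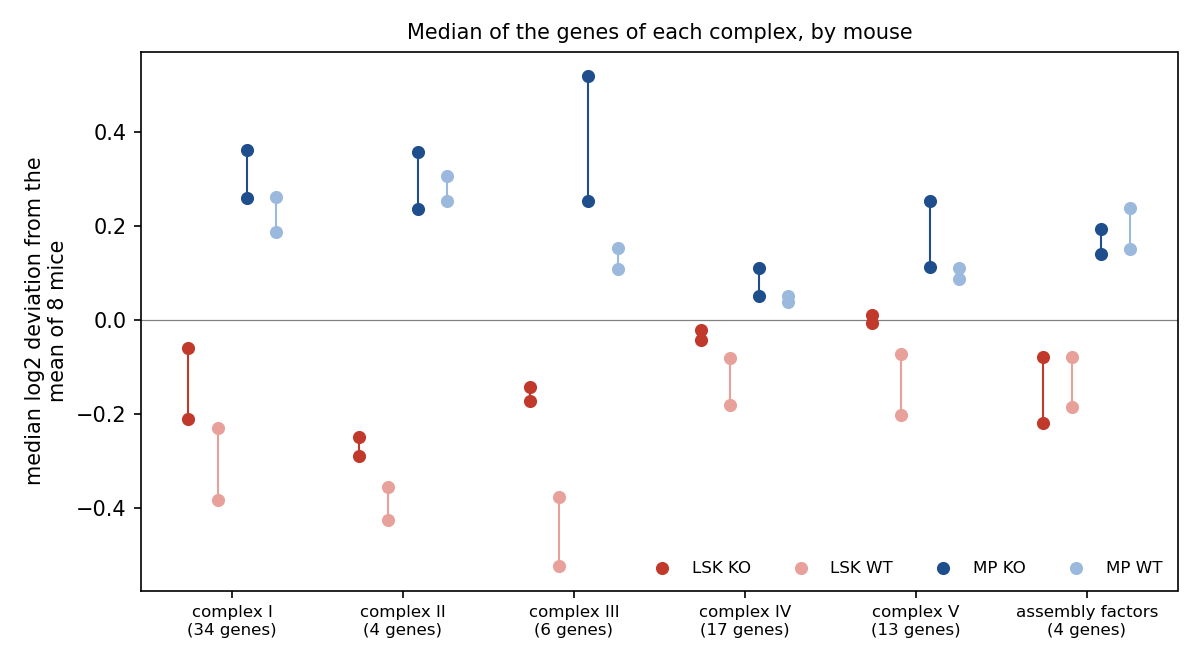
Median log2 deviation of the genes of each complex from their mean over 8 mice; each point is a mouse and a line joins the 2 mice of a group. All LSK mice lie below all MP mice in each complex, and KO-labelled LSK mice lie above WT-labelled LSK mice in complexes I to V.

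In bulk RNA, fewer cells of a type and less RNA of these genes per cell cannot be told apart, and the populations differ in their cells. Lists of cell type and cell cycle genes differed between the populations as well. Over all genes 5.49% were called lower and 7.26% higher in KO-labelled LSK cells, and 5.46% and 8.08% in WT-labelled ones. The mean log2 level of 17 cell cycle genes was 10.58 and 11.15 in KO-labelled and 10.60 and 11.00 in WT-labelled LSK mice, against 11.41 to 11.48 in KO-labelled and 11.27 to 11.34 in WT-labelled MP mice, with 4 of 17 called lower in LSK cells with either label. Ccnb2, a mitotic cyclin, changed by -1.45 in KO-labelled and -1.17 in WT-labelled mice. The mean level of 10 erythroid markers was 9.56 and 10.27 in KO-labelled and 9.65 and 10.31 in WT-labelled LSK mice, against 10.44 and 11.05 in KO-labelled and 10.96 and 11.31 in WT-labelled MP mice. Of these 10, 5 were called lower and 2 higher in KO-labelled LSK cells, and 4 lower and 1 higher in WT-labelled ones. The 10 MP markers, which share Gata1 and Klf1 with the erythroid list, averaged 11.54 and 11.95 in KO-labelled and 10.79 and 11.40 in WT-labelled LSK mice, against 12.87 to 12.93 in KO-labelled and 12.89 to 13.05 in WT-labelled MP mice. The 6 basophil and mast cell markers averaged 8.95 and 8.98 in KO-labelled and 9.01 in both WT-labelled LSK mice, against 9.85 and 10.14 in KO-labelled and 10.05 and 10.08 in WT-labelled MP mice, with 5 called lower in KO-labelled and 4 in WT-labelled LSK cells. Of 7 neutrophil markers 2 were called higher in KO-labelled and 4 in WT-labelled LSK cells. Of 8 monocyte, macrophage and dendritic cell markers 3 were called lower with either label and 1 higher in WT-labelled LSK cells. Of 7 megakaryocyte markers 1 was called lower with either label, and of 7 T and NK cell markers 1 was called lower with either label and 1 higher in WT-labelled LSK cells. Of 9 B cell markers 0 were called in KO-labelled and 2 were called higher in WT-labelled LSK cells, with median changes of 0.06 and 0.47. The part of these lists in the respiratory chain result was not tested.

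The label comparison asked whether respiratory chain genes differed between KO-labelled and WT-labelled mice of a population. The medians of the 78 genes, KO minus WT, were 0.09 in LSK cells and 0.06 in MP cells, against 0.0155 and 0.00138 over all genes. In LSK cells 58 of the 78 were positive, and in MP cells 55. Both KO-labelled LSK mice lay above both WT-labelled ones for 32 genes (41.0%), where 25.7% of all genes did, and below for 4, where 20.9% of all genes did. In MP cells the counts were 17 above (21.8%, against 20.3% of all genes) and 5 below (6.41%, against 20.8%). The median changes between labels were smaller than those between populations.

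In LSK cells 1 of 78 genes was called, where 4.64% of all genes were, and in MP cells 0, where 2.64% of all genes were. The gene in LSK cells was Cox6b2. An unadjusted p under 0.05 was found for 11 genes in LSK cells (14.1%, against 16.6% of all genes) and for 3 in MP cells (3.85%, against 11.4%). In the mean of both populations 3 were called (Cox6b2 and Uqcr10 higher, Dmac2 lower), where 7.95% of all genes were. The difference between the LSK and MP changes was called for 0 of 78 genes, where 0.062% of all genes were called, and 0 were below an unadjusted p of 0.05, where 6.35% of all genes were. With all 24 arrays and the mouse as a random block, 8 genes were called in LSK cells (10.3%, against 15.1% of all genes), 3 in MP cells (3.85%, against 9.18%) and 9 in the mean (11.5%, against 18.0%). Each of these shares of the 78 genes lay below that of all genes. Without the WT-labelled mice 1 and 5 with a Kdm5d signal, 0 were called in LSK cells, where 1.87% of all genes were, and 1 in the mean, where 4.14% were, namely Uqcr10 (0.86, adjusted p = 0.0236).

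Cox6b2 encodes the isoform of complex IV subunit 6B that is made in testis in mammals. It read 10.48 and 10.25 in KO-labelled LSK cells, against 8.59 and 9.01 in WT-labelled LSK cells, 2.95-fold higher (1.56 ± 0.30, adjusted p = 0.0139). In MP cells it read 10.57 and 10.93 with the KO label, against 9.64 and 10.49 with the WT label (0.69 ± 0.30, adjusted p = 0.410). The KO-labelled mice were above the WT-labelled mice in both populations, although MP mouse 6 was close to MP mouse 7.

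The mean change of Cox6b2 over both populations was 1.13 ± 0.21 (adjusted p = 0.00738) and was called in all 8 fits that left out a mouse (adjusted p up to 0.0373). Its LSK call was lost without mouse 1 or mouse 2 (adjusted p up to 0.104). Without mice 1 and 5 together the LSK change was 1.35 (adjusted p = 0.0636) and the mean change 0.81 (adjusted p = 0.0705). A second, dimmer probe read 8.44 and 8.28 in KO-labelled LSK cells, against 7.45 and 7.63 in WT-labelled ones (0.82, adjusted p = 0.0647), with a mean change over both populations of 0.68 (adjusted p = 0.0212). Cox6b2 was also the tissue isoform called between populations. Its change, LSK minus MP, was -0.39 in KO-labelled mice (adjusted p = 0.479) and -1.26 ± 0.30 in WT-labelled mice (adjusted p = 0.0176, lost without mouse 1 or 6). The difference between these was 0.87 ± 0.42 (adjusted p = 0.838) and was not called.

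Uqcr10, a small subunit of complex III, read 13.54 and 13.58 in KO-labelled LSK cells, against 12.98 and 12.57 in WT-labelled LSK cells (0.78 ± 0.21, adjusted p = 0.0611). In MP cells it read 13.55 and 13.87 with the KO label, against 13.32 and 12.98 with the WT label (0.56 ± 0.21, adjusted p = 0.289). KO-labelled mice were above WT-labelled mice in both populations without overlap, and the mean change was 0.67 ± 0.15 (adjusted p = 0.0168), lost without mouse 3, 6 or 8 (adjusted p up to 0.0976). Complex III as a whole had the highest median change with the KO label, 0.33 in LSK and 0.21 in MP cells, with 5 of 6 and 6 of 6 genes positive.

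Dmac2, the gene listed as ATP5SL, moved the other way. It read 11.15 and 11.33 in KO-labelled LSK cells, against 11.86 and 11.84 in WT-labelled LSK cells (-0.61 ± 0.19, adjusted p = 0.118). In MP cells it read 11.04 and 10.80 with the KO label, against 11.46 and 11.52 with the WT label (-0.57 ± 0.19, adjusted p = 0.223). The groups did not overlap in either population, and the mean change of -0.59 ± 0.14 (adjusted p = 0.0231) was lost without mouse 1, 3, 6, 7 or 8 (adjusted p up to 0.139).

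**Figure D4:**
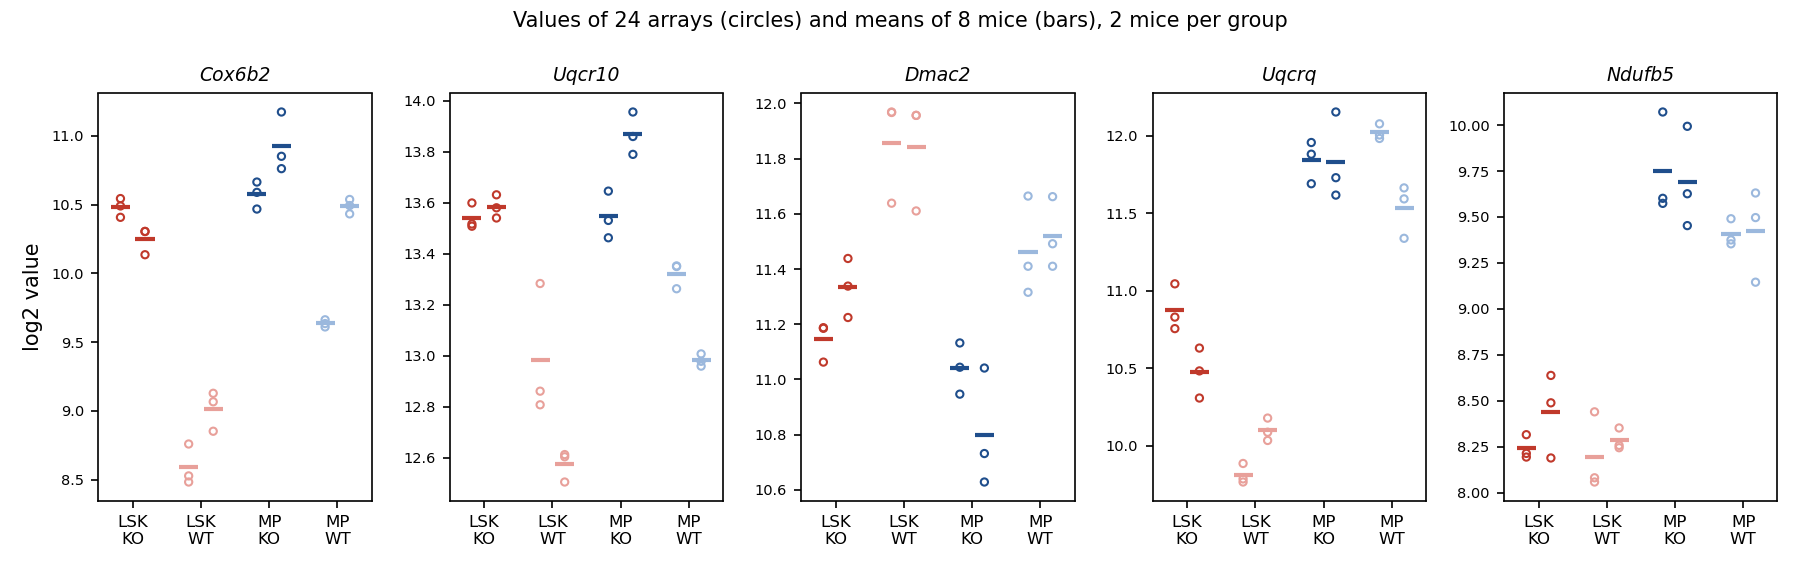
Log2 values of 5 respiratory chain genes on 24 arrays (circles) with the mean of each mouse (bars), 2 mice per group and 3 arrays per mouse; each panel has its own axis, which does not start at 0. Within each population KO-labelled mice lie above WT-labelled mice for Cox6b2 and Uqcr10 and below them for Dmac2, while Uqcrq and Ndufb5 separate LSK from MP cells.

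By complex, the KO minus WT medians in LSK and MP cells were 0.11 and 0.08 for complex I, 0.09 and 0.00 for complex II, 0.08 and 0.01 for complex IV and 0.11 and 0.07 for complex V, and 0 genes of complexes I, II and V were called in either population. In complex I the changes in LSK cells ran from -0.71 for Ndufb7 to 0.70 for Ndufb11. Ndufb7 read 10.69 in KO-labelled LSK mouse 2 but 12.23 in mouse 4, so that its change rests on mouse 2, and Ndufb11 read 10.09 and 9.26, against 9.18 and 8.77 in WT-labelled LSK cells (adjusted p = 0.286). In MP cells complex I ran from -0.22 for Ndufa2 to 0.49 for Ndufv3, both not called. A dimmer probe of Ndufv3 changed by 0.44 in LSK and 0.57 in MP cells, neither called. Its mean change over both populations, 0.50, was called (adjusted p = 0.0488). The mean changes of the brightest and the third probe, 0.33 and 0.69, were not (adjusted p = 0.420 and 0.468). The largest changes in complex V after Dmac2 were 0.44 for Atp5j2 in LSK cells (adjusted p = 0.393) and 0.32 for Atp5b, a catalytic subunit, in MP cells (adjusted p = 0.666). Across the 78 genes the LSK and MP changes, which share no mice, correlated with r = 0.49, and across all genes with r = 0.55.

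**Figure D5:**
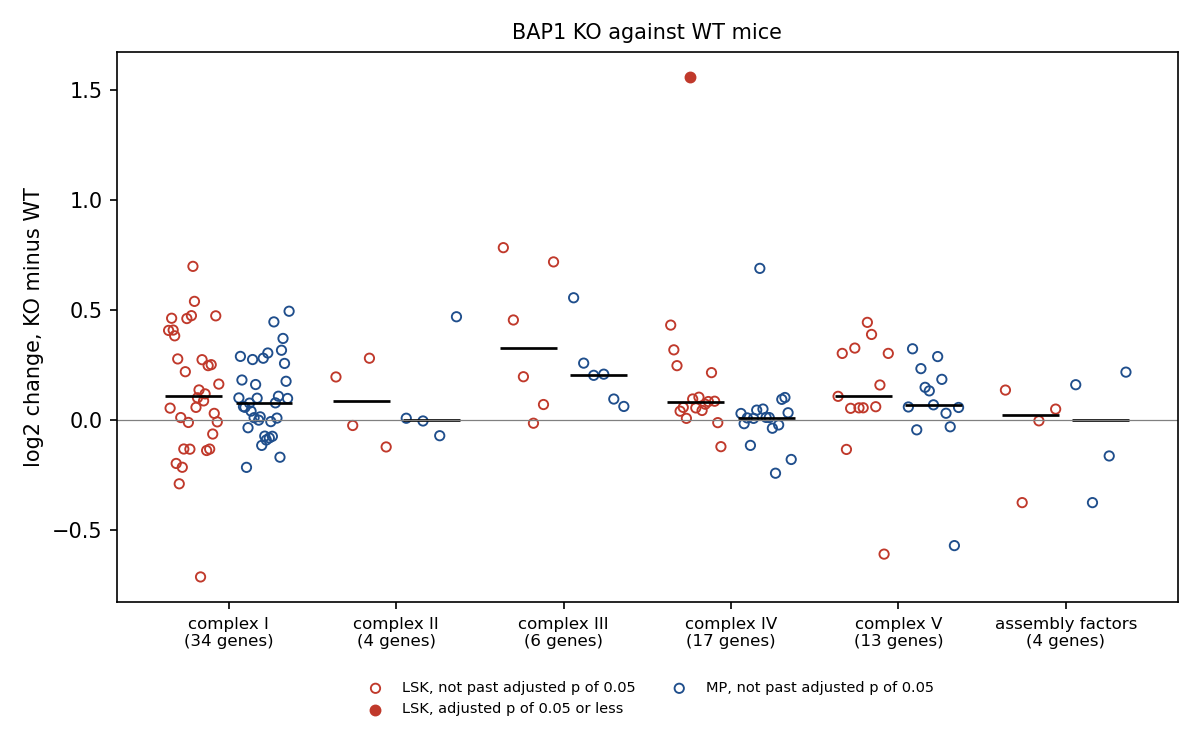
Log2 change between labels, KO minus WT, of each respiratory chain gene by complex, in LSK cells (red, left) and MP cells (blue, right), 2 mice per population and label. Filled points were called and black lines are medians; the single filled point is Cox6b2 in LSK cells, and most other genes lie within 0.5 of 0.

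Most tissue isoforms were near the lower end of the arrays. Probe means of 10 genes were under 6.5, where the 25th percentile of an array was 6.15 to 6.18, namely Atp5o, Cox4i2, Cox7a1, Cox7a2l, Cox7b, Cox7b2, Cox8b, Cox8c, Ndufa4l2 and Ndufc2. Their changes between populations had medians of -0.04 in KO-labelled and -0.07 in WT-labelled mice, 0 were called, and whether these probes read their gene at all was not tested. Atp5o, Cox7b and Ndufc2 among them encode subunits used in most cells. Cox6a2, the muscle partner of Cox6a1, read 7.16 and 7.18 in KO-labelled LSK cells, against 7.13 and 7.19 in WT-labelled ones, and its 2 probes differed in sign in WT-labelled populations without passing the threshold. Of 9 genes with several probes none had probes called in opposite directions in any comparison.

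The mice of a group also differed among themselves. Between WT-labelled MP mice 5 and 6 the median absolute difference of the 78 genes was 0.277, against 0.144 over all genes, while in the other groups it was 0.118 to 0.187, against 0.107 to 0.151. With 2 mice per group, this spread limits the precision of each value.

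Lists of other mitochondrial genes also had negative medians between populations, but this direction was not particular to them. Cell cycle genes had medians of -0.58 in KO-labelled and -0.44 in WT-labelled mice, and cytosolic ribosomal proteins had -0.24 and -0.26. The counts of the lists below stand against all genes, of which 5.49% were called lower and 7.26% higher in KO-labelled LSK cells. In WT-labelled LSK cells these shares were 5.46% and 8.08%. Of 69 genes of mitochondrial ribosomal proteins, which build the subunits encoded in mitochondrial DNA, 12 were called lower in KO-labelled LSK cells and 0 higher (median -0.39), and 20 lower and 1 higher in WT-labelled ones (median -0.49). Mrps22 changed by -1.22 and -1.06 and Mrpl55 by -1.20 and -0.93, called with both labels, and Mrps25 was higher in WT-labelled LSK cells (0.83). Among 34 assembly factors outside the symbol rule, 12 and 7 were called lower (medians -0.61 and -0.48), with 0 higher. Cox17, a copper chaperone of complex IV, read 9.45 and 9.41 in KO-labelled LSK cells, against 10.73 and 10.91 in MP cells (-1.39 ± 0.22, adjusted p = 0.00291), and changed by -1.48 in WT-labelled mice. Cox11, which inserts copper, changed by -1.01 and -1.28, and was called with both labels.

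Of 16 electron carriers and ubiquinone synthesis genes 7 were called lower in KO-labelled and 4 in WT-labelled LSK cells. Etfdh, which feeds electrons from fat oxidation into ubiquinone, changed by -1.26 in KO-labelled mice (adjusted p = 0.00981) and by -0.69 in WT-labelled ones (adjusted p = 0.111), and Coq7, a ubiquinone synthesis enzyme, by -0.67 and -1.22, both called. Among 18 citric acid cycle genes Idh3a, a subunit of the NAD-dependent isocitrate dehydrogenase, read 11.56 and 12.14 in KO-labelled LSK cells, against 13.47 and 13.17 in MP cells (-1.47), and changed by -1.49 in WT-labelled mice, called with both labels. It was the gene of that list called in KO-labelled mice, and Fh1 was called beside it in WT-labelled mice (-0.61). Of 18 import genes 3 and 5 were called lower, with Hspe1, a chaperonin, at -1.14 and -1.22, and of 12 antioxidant genes 3 and 3, with Prdx3, a mitochondrial peroxidase, at -1.21 and -0.90.

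Glycolysis genes did not share the negative direction. Of 21 measured, 3 were called higher and 0 lower in KO-labelled LSK cells, and 2 higher and 1 lower in WT-labelled ones, with medians of 0.08 and 0.00. Over all genes 7.26% and 8.08% were called higher, and 5.49% and 5.46% lower. Aldoc, an aldolase, read 12.52 and 12.04 in KO-labelled LSK cells, against 9.32 and 9.52 in MP cells (2.86, adjusted p = 0.000171), and was higher by 3.16 in WT-labelled LSK cells. Slc2a3, a glucose transporter, was higher in LSK cells by 0.87 and 1.71, and Hk3, a hexokinase, was lower in WT-labelled LSK cells (-0.82). Of 15 regulators of mitochondrial transcription and biogenesis Ppargc1a, a coactivator, was higher in LSK cells by 0.73 and 0.67, at probe values of 6.05 to 6.95, and Pprc1, a related coactivator, was called lower in KO-labelled LSK cells alone (-0.68). Cytosolic ribosomal proteins, taken beside these as another abundant machinery, had medians of -0.24 and -0.26, with 8 lower and 2 higher of 37 in KO-labelled and 6 lower and 1 higher in WT-labelled LSK cells.

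Between labels these lists held few calls. Of all genes 4.64% were called in LSK cells, 2.64% in MP cells and 7.95% in the mean of both. Slc2a3 read 11.60 and 11.63 in KO-labelled LSK cells, against 12.88 and 12.39 in WT-labelled LSK cells (-1.02, adjusted p = 0.0385), the sole call of the mitochondrial and glycolysis lists in LSK cells, and 0 were called in MP cells. In the mean of both populations Mpc2, a pyruvate carrier subunit (-0.46), and Hk2, a hexokinase (-0.60), were lower, and Ppargc1b, a coactivator (0.66), and Timm17b, an import subunit (0.69), higher. Cell type markers moved with the label as well: 3 of 10 MP markers (Elane, Ctsg and Cebpe) were called higher in KO-labelled LSK cells, and 6 of 9 B cell markers were lower in LSK and 5 of 9 in MP cells. Of 10 erythroid markers 2 were called lower in LSK and 1 in MP cells. Of 8 monocyte, macrophage and dendritic cell markers 1 was higher and 1 lower in LSK, and 2 were lower in MP cells. Of 7 megakaryocyte markers 1 was higher and 1 lower in each population, as for 6 basophil and mast cell markers. Of 7 T and NK cell markers 1 was higher and 1 lower in LSK cells, and 1 of 8 LSK markers was lower in MP cells. The mean level of the B cell markers was 7.13 and 7.43 in KO-labelled, against 9.45 and 9.48 in WT-labelled LSK mice, and 7.28 and 7.33 in KO-labelled, against 8.79 and 9.06 in WT-labelled MP mice. The part of these cell types in the changes of Cox6b2, Uqcr10 and Dmac2 was not tested.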

How the data were processed

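The authors deposited log2 intensities of 22439 probes on 24 one-colour arrays, with limma named in the submitters' processing notes and RNA amplified by in vitro transcription and labelled with Cy5 per the labels' protocols. The values ran from 5.66 to 15.9, and the sorted values of any 2 arrays differed by at most 0.0451, so the arrays had been brought to a common distribution before deposit. The sources used here give neither background correction nor detection calls, and signal over background is therefore unknown.

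Array symbols were matched to the RefSeq gene table of GRCm38.p6: 18213 probes matched a current symbol, 2126 a synonym, 36 kept the array's name and 2064 stayed unnamed. Each gene was read by its brightest probe over all arrays. The 3 arrays of a mouse were averaged as technical repeats, and a linear model of the 8 averaged profiles was run in R 4.3.3 with limma 3.58.1 (eBayes with trend and robust options), giving 4 residual and a median of 6.91 prior degrees of freedom. A change was called at a p-value of 0.05 or less after Benjamini-Hochberg adjustment across the 22439 probes. Contrasts were LSK minus MP within each label, KO minus WT within each population, their mean and their difference. The fit was tested on simulated data. Promoters were searched on both strands in RefSeq windows. Python 3.11.15, pandas 2.3.3 and matplotlib 3.10.9 made summaries and figures.

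The genes, the pathway and marker lists and the tests were chosen with earlier results of these data known. Named genes were those called (the 10 with the largest change where more were called), the extremes of each complex, core and catalytic subunits, tissue isoforms and up to 4 called genes per list. Ndufa9, Ndufb9, Ndufa4 and the other called genes beyond these, Cox6a2's second probe and Cd48 were named after their values were seen. Alternatives were the mouse as a random block, an array number block, filters on dim probes, centring, renewed quantile normalization, averaged probes, plain eBayes, the compared groups alone, left-out mice and Kdm5d as a covariate. Correlations between arrays had medians of 0.994 within a mouse, 0.987 between mice of a group, 0.978 between labels and 0.959 between populations. With 2 mice per group, their number limits the precision.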

Additional observations from a re-analysis of the deposited data

Results flagged for a closer look

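In 96 sets of 6 arrays, covering 24 respiratory chain genes in 4 groups, a single array stood apart from the other 5 of its group in 4 sets. Chance flags about 1 in 20 sets of independent values, and these are not independent, since each set holds 3 arrays of each of 2 mice. Mouse 6 array 3 of WT-labelled MP cells read 8.38 for Ndufa11, while the other arrays of that group read 8.70 to 8.79. Mouse 2 array 3 of KO-labelled LSK cells read 8.99 for Ndufb3, with the others at 8.80 to 8.85, and 11.96 for Ndufb6, with the others at 11.54 to 11.69. Mouse 3 array 2 of WT-labelled LSK cells read 11.60 for Sdhb, with the others at 11.76 to 11.82. All 4 are technical arrays of mice whose other arrays lay with their group. Genes outside these 24 were not screened. Among them Cox7b read 8.00 on mouse 5 array 3 of WT-labelled MP cells, with the others at 6.18 to 6.28. Its change between WT-labelled populations of -0.40 rests mostly on that array. Atp5c1 read 6.81 on mouse 6 array 3 of the same group, with the others at 7.49 to 7.77.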

How the results depend on the processing

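No count or median over the respiratory chain genes and no called gene reversed under the alternatives run. Genes that were not called were followed with averaged probes alone, where 5 genes turned in 16 of their comparisons, none of them called. Among these Ndufs4 changed between WT-labelled populations by -0.23 (0.07 by its brightest probe), Cox6a2 by 0.23 (-0.09) and Ndufv3 by -0.01 (0.31), and Dmac2l between labels in LSK cells by -0.20 (0.30). Emc8 turned in all 6 comparisons. Among counts and medians over the respiratory chain genes 211 stayed close and 37 moved, and among values of single called genes 611 kept their call and 131 lost it. With all arrays and the mouse as a random block, 29 genes were called between populations in KO-labelled mice (16 with mouse means) and 32 in WT-labelled mice (18), 8 between labels in LSK cells (1), 3 in MP cells (0) and 9 in the mean (3). Adding the array number as a replicate block gave 28, 32, 8, 3 and 9. The numbers shared between groups name technical arrays and pair no mice, and the replicate block left every median as it was, including -0.30, -0.39, 0.09, 0.06, 0.10 and 0.05. Between labels in LSK cells the count was 0 with plain eBayes, 2 with probes above the 25th or 50th percentile, 2 with Kdm5d as a covariate and 0 without mice 1 and 5. Without mice 1 and 5 the mean held 1 call and WT-labelled populations 4. With probes above the 50th percentile, and with genes above the median probe mean, the median between populations was -0.39 in KO-labelled and -0.49 in WT-labelled mice. With subunits of most cells alone, 0 were called in LSK cells and 1 in the mean. The limits to these subunits and to genes above the median probe mean, and complex IV without Emc8, were chosen after seeing the data. Leaving out 1 mouse gave 4 to 16 calls in KO-labelled and 6 to 23 in WT-labelled populations, with medians of -0.38 to -0.23 and -0.49 to -0.33. It gave 0 to 2 calls between labels in LSK cells and 1 to 4 in the mean, and none in MP cells or in the difference. The cause of these shifts was not tested. The fit on the compared groups alone gives no value for the mean and the difference. Detection is unknown for the 10 genes with probe means under 6.5.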
